A study of Mus musculus with 40 samples.

Results

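Oligodendrocyte lineage and myelin genes were examined as a set of 35 genes out of the 47643 in the deposited counts. The members were taken by symbol: the Ensembl identifiers in the tables were matched to the mouse GENCODE M21 annotation (GRCm38, the assembly also called mm10), and all 35 symbols were found once. Of these, 30 are genes of mature oligodendrocytes and myelin, and 5 (Pdgfra, Cspg4, Vcan, Olig1 and Olig2) are used as precursor genes. RNA-seq counts came from the hippocampus and the frontal cortex of wild-type Swiss Webster mice, raised germ-free, that received stool microbiota of 1 of 10 human donors with refractory epilepsy, collected either before (pre-KD) or after (post-KD) the donor began a clinical ketogenic diet. This made 20 cohorts, 10 pre-KD and 10 post-KD, each sampled in both regions, and so 40 libraries in 4 groups of 10. All groups share the germ-free background and the control diet. They also share juvenile age and female sex, as stated in the methods, and tissue collection on day 4 after colonization. Each library pools the tissue of 6 mice, so the spread between libraries is the spread between pools. The comparison of post-KD with pre-KD recipients asks whether the donor's diet-associated microbiota goes with a different level of these transcripts, and the comparison of regions describes where the set stands higher.

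Oligodendrocytes wrap axons in myelin, a stacked membrane that speeds conduction and supplies the axon with metabolites. They arise from precursor cells that carry the receptor Pdgfra and the proteoglycan Cspg4. Transcription factors such as Sox10 and Myrf then switch on the structural proteins of myelin and the enzymes that make its lipids. Both regions hold gray matter and white matter, and much of the hippocampal white matter lies in the bundles along its surface, so the myelin content of a dissection depends on where it was cut. Some members, among them Qdpr, Car2, Cryab, Gsn, Trf and Plekhb1, are also expressed outside the lineage.

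The libraries were shallow. Total counts ran from 1140756 to 1947416 in the hippocampus and from 1188447 to 2095352 in the frontal cortex, and the transcript Gm42418 alone took 8.63% to 17.96% and 9.79% to 18.02% of them. No pair of libraries held identical values. Although the methods state female mice, all 8 libraries of donors 9 and 10 held 139 to 276 counts of 4 Y-linked genes, the hippocampal pre-KD library of replicate 2 held 27, and the others held 0 to 4, so the members with an unadjusted p under 0.05, the summed levels and the relations with Mbp are also given without donors 9 and 10, and the other values are given with all donors. The counts are of reads, so a counting error covers sampling of reads only. Levels are given as CPM, counts scaled to a common library total, with totals scaled by the trimmed mean of M-values (TMM).

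Among the membrane proteins of myelin, Mbp, which holds the cytoplasmic faces of the sheath together, took the most reads of any member. Its level had a lowest, median and highest value of 716, 955 and 1392 CPM over the 20 hippocampal libraries and of 775, 1144 and 1444 CPM over the 20 cortical libraries. Mbp alone made up 29.5% to 42.0% of the summed level of the 30 mature members in the hippocampus and 30.6% to 39.9% in the frontal cortex. Mobp, a second basic protein of compact myelin, had 139.6, 266.5 and 367 CPM in the hippocampus and 251, 323 and 459.6 CPM in the frontal cortex. Mag, an adhesion protein facing the axon, had medians of 135 and 162 CPM in hippocampus and frontal cortex, and Cnp, an enzyme of the non-compact membrane, had 132 and 133 CPM. The raft proteolipid Mal stood at 127 and 147 CPM, the tight-junction protein Cldn11 at 102 and 106 CPM, and Bcas1, a marker of newly myelinating cells, at 87.5 and 99.3 CPM. These 7 genes had counts in every library, and the rest of the membrane group took fewer reads. Ermn, Mog, Tspan2 and Opalin had hippocampal medians of 40.2, 31.6, 20.2 and 12.7 CPM, and the gap junction connexin Gjb1, at 4.96 CPM, had no count in 6 of 20 hippocampal libraries.

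**Figure D1:**
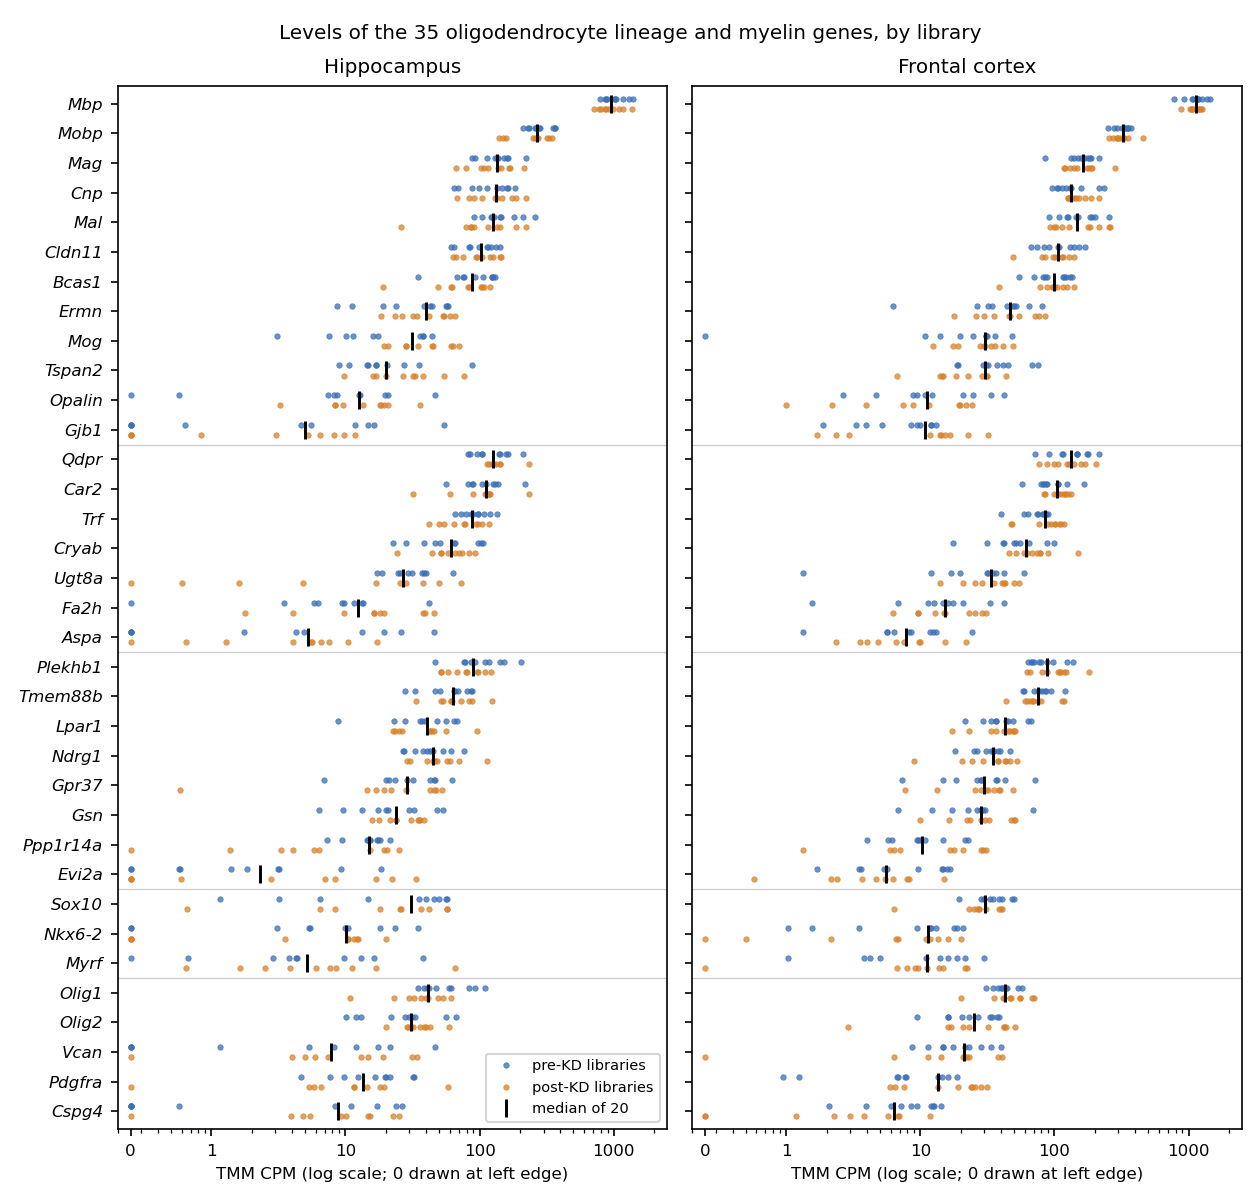
Level of each of the 35 genes in each library, as TMM CPM on a log axis with a level of 0 drawn at the left edge, for hippocampus (left) and frontal cortex (right). Points are libraries (blue, pre-KD, orange, post-KD, 10 each per region), the black bar is the median of the 20 libraries, and grey lines separate the role groups; Mbp stands alone at the top with medians of 955 and 1144 CPM, and 12 of 35 members have 1 or more libraries at 0 in the hippocampus, against 5 in the frontal cortex.

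Among the enzymes and carriers, Qdpr, which recycles the cofactor tetrahydrobiopterin, had medians of 126 CPM in the hippocampus and 134 CPM in the frontal cortex. Car2, a carbonic anhydrase, and Trf, the iron carrier transferrin, had 111 and 87.9 CPM in the hippocampus and 105 and 84.4 CPM in the frontal cortex, and the small heat shock protein Cryab had 61.5 and 60.9 CPM. Of the enzymes of myelin lipids, Ugt8a, which makes galactosylceramide, had medians of 27.0 and 33.5 CPM, and the fatty acid hydroxylase Fa2h 12.5 and 15.2 CPM. Aspa, which cleaves N-acetylaspartate in oligodendrocytes, had 5.23 and 7.85 CPM and no count in 4 hippocampal libraries. Among the receptors, cytoskeletal and other proteins, medians in the hippocampus went from 89.4 CPM for Plekhb1 through 63.2 CPM for Tmem88b, 44.8 CPM for Ndrg1, 40.9 CPM for the lysophosphatidic acid receptor Lpar1, 28.5 CPM for the receptor Gpr37, 23.7 CPM for the actin-severing protein Gsn and 14.9 CPM for the phosphatase inhibitor Ppp1r14a to 2.31 CPM for Evi2a. Of the transcription factors, Sox10 stood at 30.8 and 30.3 CPM, Nkx6-2 at 10.2 and 11.4 CPM, and Myrf at 5.21 and 11.1 CPM.

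Of the 5 precursor genes, the basic helix-loop-helix factors took the most reads, Olig1 with medians of 41.5 CPM in the hippocampus and 42.7 CPM in the frontal cortex and Olig2 with 31.0 and 24.98 CPM. Pdgfra, the growth factor receptor that defines precursors, had 13.5 and 13.6 CPM. Cspg4 had 8.82 and 6.39 CPM with no count in 5 hippocampal and 2 cortical libraries, and the matrix proteoglycan Vcan had 7.80 and 21.2 CPM with no count in 4 hippocampal libraries and 1 cortical library. The summed level of the 30 mature members exceeded that of the 5 precursor members in each library, by 11.5 to 45.4 times in the hippocampus and by 18.9 to 38.7 times in the frontal cortex.

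Per kilobase of exon, the scale for setting different genes side by side where a kit samples whole transcripts, Mbp had a median of 113 CPM per kb in the hippocampus and 135 CPM per kb in the frontal cortex. Qdpr (70.6 and 74.9 CPM per kb) and Cldn11 (54.3 and 56.9 CPM per kb) came next, ahead of Mobp (38.9 and 47.2 CPM per kb), whose exons are longer. Vcan (0.539 and 1.46 CPM per kb), Cspg4 (0.739 and 0.536 CPM per kb) and Myrf (0.609 and 1.299 CPM per kb) were at the low end. The labels name a library kit that samples whole transcripts, while the study's list of reagents also names a kit that reads only the transcript end, on which per-length levels of long genes would be too low. The order depends on that scale, since in plain CPM Mobp, with a hippocampal median of 266.5, stood ahead of Qdpr at 126 and Cldn11 at 102.

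The members were measured with very unequal precision. Summed over the 20 libraries of a region, counts ran from 190 for Evi2a to 30553 for Mbp in the hippocampus and from 209 for Cspg4 to 37969 for Mbp in the frontal cortex. A count in every library was found for 23 of the 35 members in the hippocampus and for 30 in the frontal cortex. The coefficient of variation between libraries was lowest for Mbp, 19.9% in hippocampus and 14.1% in frontal cortex, and reached 159% for Gjb1 in the hippocampus and 76.1% for Opalin in the frontal cortex. Its median over the members was 47.6% and 46.0%, against 14.2% and 13.6% from counting error, and for all 35 members in both regions it was more than 2 times the counting error.

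Exons of some members are shared with other annotated genes, and reads there could be split or lost. This concerns 63.5% of the exon bases of Trf (with a same-strand gene model, Gm20425), 19.2% of Evi2a, 18.6% of Qdpr, 17.04% of Cryab, 12.9% of Nkx6-2 and 12.6% of Bcas1. Whether counting used the strand is not given in the sources used here, so values of these members are uncertain to that extent.

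Few libraries were high or low across the set as a whole. The mature sum had a lowest, median and highest value of 2522, 2736 and 3734 CPM in hippocampal pre-KD libraries and of 2181, 2597 and 3546 CPM in post-KD libraries. In the frontal cortex these values were 2536, 2998 and 3646 CPM pre-KD and 2625, 3105 and 3541 CPM post-KD. The groups overlapped, although 5 of 10 hippocampal post-KD libraries lay below the lowest pre-KD library, and means ± SD (n = 10 each) were 2875 ± 396 and 2715 ± 473 CPM in the hippocampus and 3070 ± 351 and 3090 ± 269.8 CPM in the frontal cortex, pre-KD and post-KD in turn. Without donors 9 and 10 (n = 8 each) the hippocampal means were 2815 ± 425 and 2744 ± 529 CPM and the cortical means 3038 ± 319.8 and 3061 ± 297.7 CPM. The highest hippocampal sum was that of pre-KD replicate 5, where 20 of 30 mature members were above their regional median, followed by post-KD replicate 6 (20 of 30) and post-KD replicate 2 (24 of 30). Pre-KD replicate 5 was also the highest cortical library, at 3646 CPM with 21 of 30 members above the median. Across libraries, 7 to 24 of the 30 mature members stood above the regional median in the hippocampus and 7 to 21 in the frontal cortex, so no library had all of them high or all of them low. In bulk tissue, fewer cells of the lineage and less RNA per cell cannot be told apart.

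**Figure D2:**
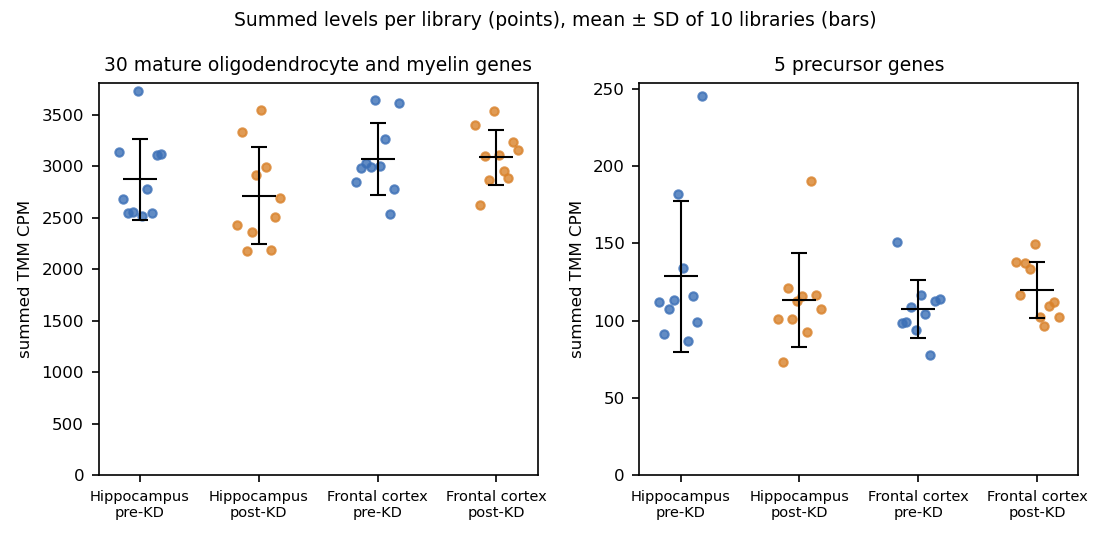
Summed TMM CPM of the 30 mature genes (left) and of the 5 precursor genes (right) in each library, by region and condition. Points are libraries (blue, pre-KD, orange, post-KD), and black bars give the mean ± SD of the 10 libraries of a group; the mature sums run from 2181 to 3734 CPM with all 4 groups overlapping, and the precursor sums from 73.4 to 245 CPM.

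The precursor sum was 129 ± 49.0 CPM pre-KD and 113 ± 30.4 CPM post-KD in the hippocampus, and 108 ± 19.01 and 120 ± 18.4 CPM (SD, n = 10 each) in the frontal cortex, and all groups overlapped. The highest of all 40 sums was that of hippocampal pre-KD replicate 10, at 245 CPM, and without donors 9 and 10 the hippocampal means were 118 ± 29.8 and 113 ± 34.4 CPM and the cortical means 106 ± 21.3 and 123 ± 19.3 CPM (n = 8 each).

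The myelin genes with the most reads did not follow Mbp closely from library to library. Over the 20 hippocampal libraries, log2 CPM of Mbp was set against that of Mobp, Mag, Cnp and Mal, the mature members with the next highest CPM there, and over the 20 cortical libraries against that of Mobp, Mag, Mal and Qdpr, which made 8 relations. Mal in the hippocampus gave the highest correlation, with Pearson's r = 0.57 (permutation p = 0.00376, adjusted over the 8 relations 0.0301) and Spearman's rho = 0.59 (permutation p = 0.00714, adjusted 0.0571). Without the 2 libraries farthest from the median of Mbp r was 0.53, and within the pre-KD and post-KD libraries it was 0.57 and 0.56. The other 7 relations had r from -0.26 to 0.43 and adjusted permutation p from 0.207 to 0.276, and none of them passed. Over the 16 libraries of a region without donors 9 and 10, r was 0.58 for Mal in the hippocampus and ran from -0.10 to 0.55 for the other 7. For Cnp in the hippocampus r was -0.73 among the pre-KD and 0.21 among the post-KD libraries. CPM values of a library share its total, which links all of these levels.

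In the hippocampus no member passed the test between post-KD and pre-KD recipients. By edgeR's quasi-likelihood test with Benjamini-Hochberg adjustment over all 17529 genes tested, 0 of 35 members had an adjusted p under 0.05, against 0.0057% (1 gene) of all genes tested. At an unadjusted p under 0.05 there were 2 members, 1 higher and 1 lower, against 10.1% of all genes tested (4.57% higher and 5.48% lower). Both have a mean of at least 20 CPM, a level at which 2 of 24 members and 2.92% of all 6411 genes had such a p. DESeq2 and edgeR without its legacy mode likewise called 0 members after adjustment and had 2 at an unadjusted p under 0.05, against 3.42% and 5.8% of all genes in those fits. Post-KD values were higher for 17 members and lower for 18, with a median log2 fold change of -0.027 against -0.0076 over all genes tested. The sign of that median depended on the fit, from -0.18 without replicate 6 to 0.069 with a donor block in DESeq2, and it was 0.064 without donors 9 and 10. By role, 6 of 12 membrane proteins, 2 of 7 enzymes and carriers, 5 of 8 receptors and other proteins, 1 of 3 transcription factors and 3 of 5 precursor genes were higher post-KD. Markers of other tissue leaned with condition here: all 6 tested markers of the striatum were lower post-KD, none past adjustment, with summed levels of 79.2 to 295 CPM pre-KD and 33.0 to 209 CPM post-KD, and 7 of 8 markers of hippocampal neurons were higher. Their part in the values of the members was not tested.

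Mog, the glycoprotein of the outermost myelin lamella (chr17:37010743-37023398, minus strand), was the mature member with an unadjusted p under 0.05 in the hippocampus. Its lowest, median and highest values were 3.07, 16.8 and 44.6 CPM pre-KD and 19.3, 39.5 and 70.1 CPM post-KD. The post-KD libraries leaned high, in 9 of 10 donor pairs, but the groups overlapped. The log2 fold change was 0.90 ± 0.43 (SE, n = 10 each), with p = 0.041 and an adjusted p of 0.441 by edgeR's quasi-likelihood test. Without donors 9 and 10 it was 0.91 with p = 0.0551, and leaving out single donors gave 0.66 to 1.15 with p from 0.0161 to 0.151, under 0.05 in 5 of 10 cases. Olig1, the helix-loop-helix factor of the lineage (chr16:91269772-91271933, plus strand), leaned the other way. It had 34.96, 53.2 and 109 CPM pre-KD and 10.9, 38.2 and 61.2 CPM post-KD, lower in 9 of 10 donor pairs with overlapping groups. Its log2 fold change was -0.70 ± 0.32 (SE), with p = 0.0339 and an adjusted p of 0.392 by the same test, and without donors 9 and 10 it was -0.68 with p = 0.0830. Without replicate 9 alone, neither gene had p under 0.05.

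Mbp itself gave the narrowest interval in the hippocampus, and it bounds any difference tightly. It had 792, 1010.0 and 1392 CPM pre-KD and 716, 897 and 1368 CPM post-KD, with group means ± SD of 1034 ± 199 and 956 ± 199.98 CPM. The log2 fold change was -0.12 ± 0.11 (SE), with a 95% interval from -0.34 to 0.11 and an adjusted p of 0.996 in the edgeR fit. Cnp stood at 122 ± 41.55 (pre-KD) and 134 ± 49.6 (post-KD) CPM, a log2 fold change of 0.14 with an interval from -0.28 to 0.55. The lineage factors Sox10 and Olig2 had log2 fold changes of -0.16 (-1.13 to 0.82) and 0.24 (-0.57 to 1.05). The precursor genes Pdgfra and Cspg4 had -0.24 (-1.54 to 1.05) and 0.33 (-1.45 to 2.12), intervals too wide to say more than that no difference was detectable at this depth and spread. For 16 of 35 members the 95% interval lay within 1 unit of log2 on either side, that is, within a 2-fold difference.

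In the frontal cortex, too, 0 of 35 members had an adjusted p under 0.05 by edgeR's quasi-likelihood test over 17873 genes, against 0.0056% (1 gene) of all genes tested. There were 2 members at an unadjusted p under 0.05, 1 higher and 1 lower, against 9.68% of all genes tested (5.01% higher and 4.68% lower). Among genes with a mean of at least 20 CPM, where both lie, it was 2 of 25 members and 5.34% of all genes. DESeq2 and edgeR without its legacy mode called 0 members after adjustment and had 3 each at an unadjusted p under 0.05, where 4.62% and 6.62% of all genes did. Members higher and lower post-KD were 17 and 18 again, with a median log2 fold change of -0.012 against 0.0087 over all genes tested, and the alternatives moved the former from -0.076 without replicate 1 to 0.056 without replicate 7. Higher post-KD were 6 of 12 membrane proteins, 4 of 7 enzymes and carriers, 4 of 8 receptors and other proteins, 0 of 3 transcription factors and 3 of 5 precursor genes. The striatal sum was 500.2 to 1032 CPM pre-KD and 715 to 1103 CPM post-KD in this region, where 4 of 6 striatal markers were higher post-KD, 2 of them at an unadjusted p under 0.05 and 0 past adjustment, and their part in the values of the members was not tested.

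Tspan2, a tetraspanin of the myelin membrane (chr3:102734529-102801513, plus strand), had the lowest p of all members in the frontal cortex. It had a lowest, median and highest value of 18.9, 34.6 and 75.6 CPM pre-KD and of 6.67, 20.6 and 43.6 CPM post-KD. In 10 of 10 donor pairs the post-KD library was the lower one, although the groups overlapped. The gap was uneven. It was 37.2 against 6.67 CPM in replicate 6, but 18.97 against 18.45, 29.2 against 28.6 and 32.0 against 31.2 CPM in replicates 2, 3 and 7. The log2 fold change was -0.82 ± 0.32 (SE, n = 10 each), with p = 0.0124 and an adjusted p of 0.213 by edgeR's quasi-likelihood test, and without donors 9 and 10 it was -0.89 with p = 0.0200. With the donor as a block, which makes use of these pairs, it was -0.83 with p = 0.0181 and an adjusted p of 1. Tspan2 leaned the other way in the hippocampus, at 25.3 ± 23.2 (pre-KD) and 32.3 ± 20.2 (post-KD) CPM. Cryab, a chaperone of the heat shock family (chr9:50751325-50756636, plus strand), had 17.6, 50.8 and 99.98 CPM pre-KD and 46.0, 71.1 and 151 CPM post-KD in the frontal cortex. It was higher post-KD in 7 of 10 donor pairs, with overlapping groups. The log2 fold change was 0.48 ± 0.23 (SE), with p = 0.040 and an adjusted p of 0.460 by the same test, and it was 0.31 with p = 0.194 without replicate 3, whose post-KD library was the highest, and 0.56 with p = 0.0280 without donors 9 and 10.

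**Figure D3:**
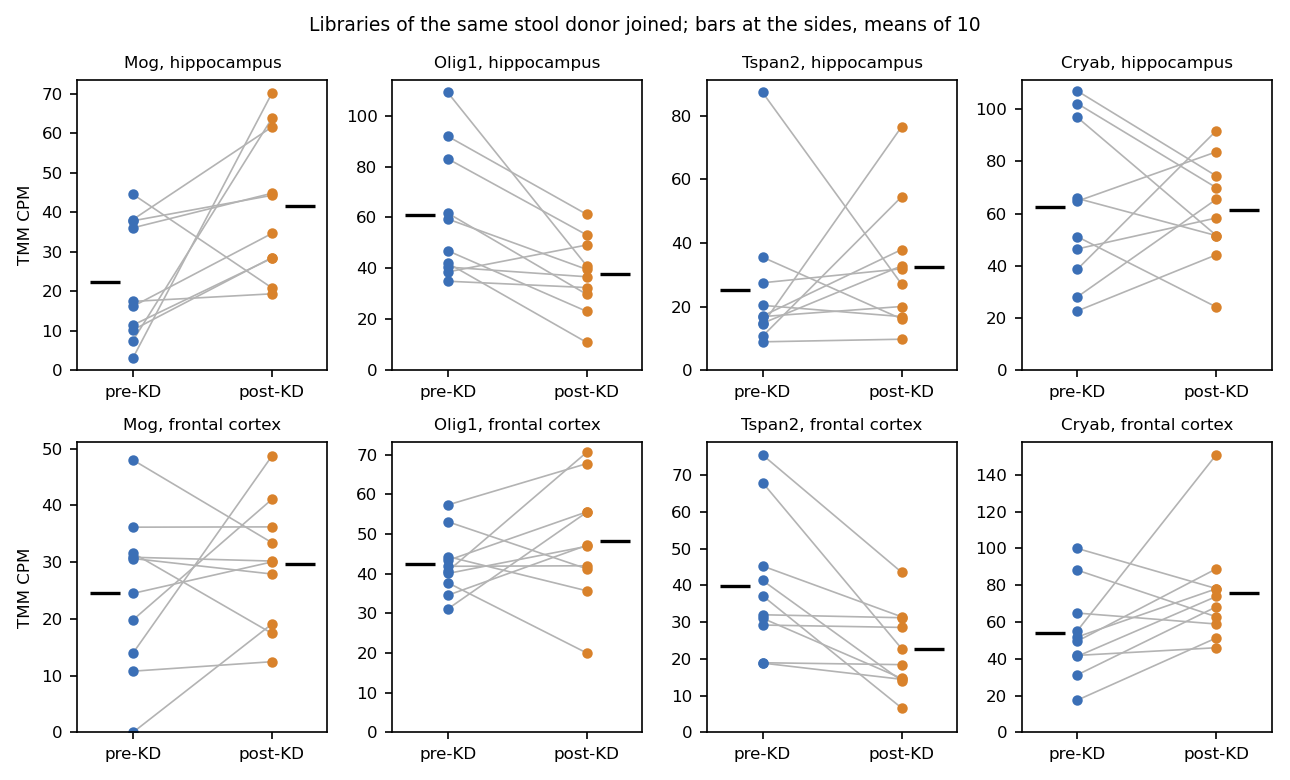
TMM CPM of Mog, Olig1, Tspan2 and Cryab, the 4 genes with an unadjusted p under 0.05 in 1 of the regions, in the hippocampus (top) and the frontal cortex (bottom). Lines join the pre-KD (blue) and post-KD (orange) libraries of 1 stool donor, and black bars at the sides are means of 10; all groups overlap, and cortical Tspan2 is the only panel in which all 10 lines fall.

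Mbp was nearly equal in cortical pre-KD and post-KD libraries. It had 775, 1162 and 1444 CPM pre-KD and 877, 1105 and 1265 CPM post-KD, a log2 fold change of -0.04 ± 0.09 (SE) with a 95% interval from -0.22 to 0.14. Mog, at 24.6 ± 13.9 (pre-KD) and 29.7 ± 11.1 (post-KD) CPM, had a log2 fold change of 0.25 (-0.48 to 0.99), and Cnp one of 0.10 (-0.20 to 0.41). Sox10 was at 35.3 ± 9.36 (pre-KD) and 28.5 ± 10.1 (post-KD) CPM, lower in 8 of 10 donor pairs, with -0.31 (-0.91 to 0.28), and Olig2 had 0.18 (-0.52 to 0.88). Pdgfra and Cspg4, both markers of precursors, had log2 fold changes of opposite sign: Pdgfra 0.95 (-0.07 to 1.97, p = 0.0668, adjusted p = 0.591) and Cspg4 -1.08 (-2.61 to 0.45, p = 0.163, adjusted p = 0.839) by edgeR's quasi-likelihood test. The 95% interval lay within a 2-fold difference for 25 of the 35 members.

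**Figure D4:**
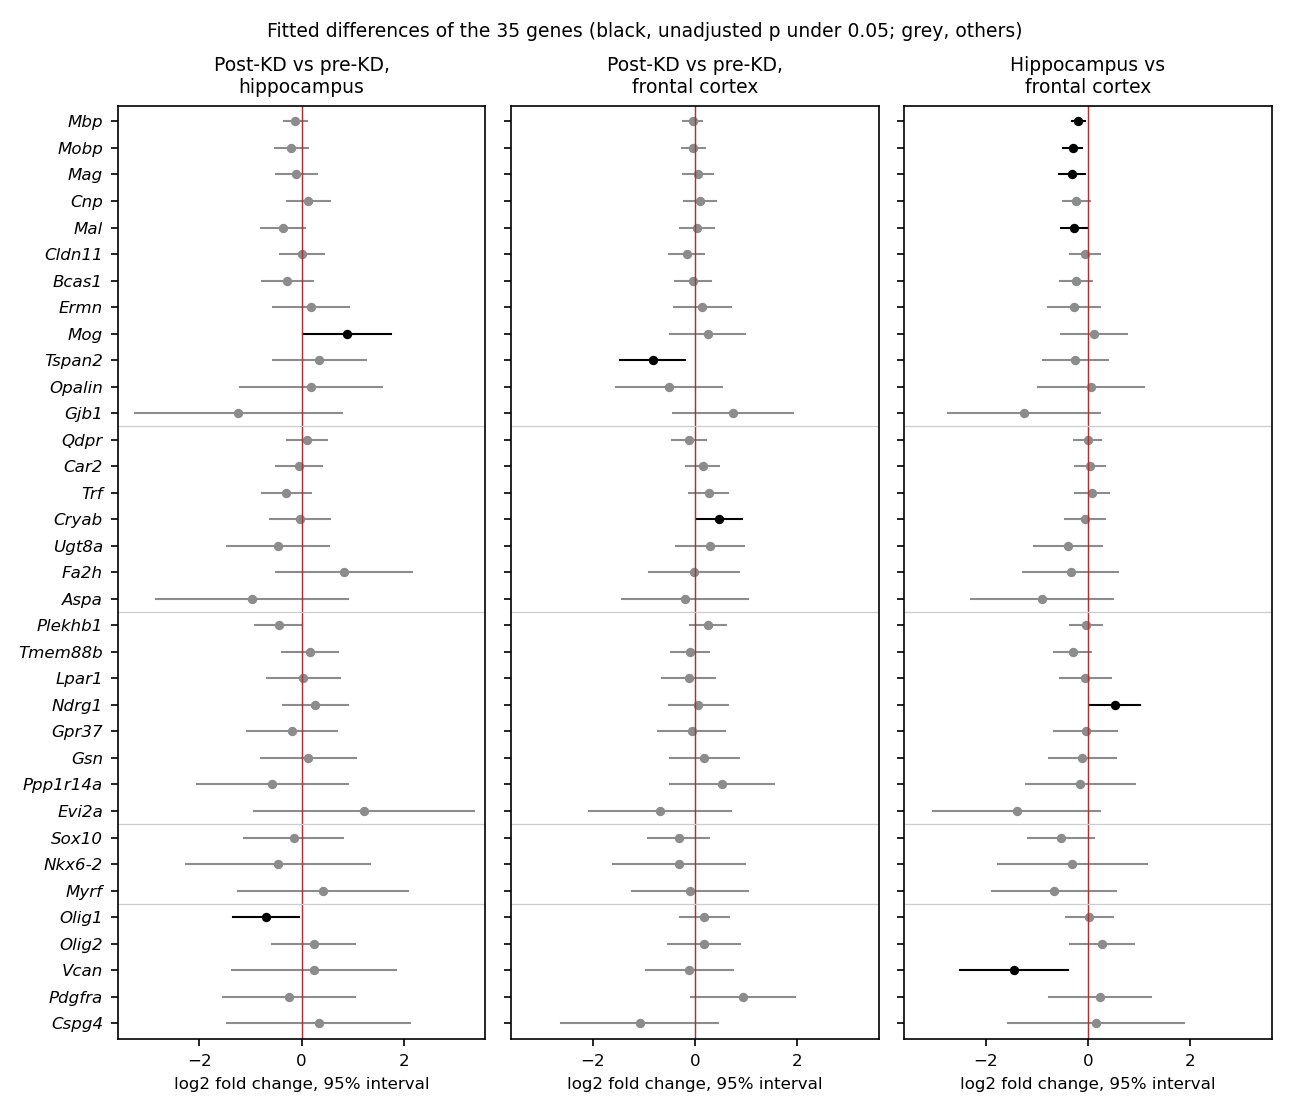
Log2 fold change (points) with its 95% interval (bars) from edgeR's quasi-likelihood fits for the 35 genes, for post-KD against pre-KD in the hippocampus (left) and the frontal cortex (middle) and for hippocampus against frontal cortex (right). Black marks an unadjusted p under 0.05 (2, 2 and 6 genes), grey the others, and no gene passed an adjusted p of 0.05; genes with many reads such as Mbp have short intervals and thin ones such as Evi2a and Gjb1 long ones.

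The change post-KD was not shown to differ between regions for any member. In the test of region by condition, 0 of 35 members passed an adjusted p of 0.05 by edgeR's quasi-likelihood test (0.0154% of all 19422 genes did), and 3 had an unadjusted p under 0.05, 1 with a positive and 2 with a negative difference (hippocampus minus frontal cortex), against 2.22% of all genes (0.865% and 1.35%). By DESeq2 these counts were 0 and 8, and without edgeR's legacy mode 0 and 4, where 4.89% and 3.7% of all genes had an unadjusted p under 0.05. Ugt8a, the galactosylceramide enzyme, had medians of 30.3 CPM pre-KD and 21.2 CPM post-KD in the hippocampus and of 31.6 and 37.9 CPM in the frontal cortex, a difference of the changes of -1.64 ± 0.69 on the log2 scale (SE, p = 0.0174, adjusted p = 1). That value depended on the cohort terms: without them it was -0.76 with p = 0.236, and the ratios of group means also give -0.76. Plekhb1 had medians of 101 and 79.7 CPM in the hippocampus and 78.1 and 108 CPM in the frontal cortex (-0.63 ± 0.32, p = 0.0473, adjusted p = 1). Cspg4 had medians of 4.47 and 9.67 CPM in the hippocampus and 8.96 and 3.37 CPM in the frontal cortex (3.23 ± 1.61, p = 0.0444, adjusted p = 1). Cspg4 has 5 hippocampal and 2 cortical libraries at 0, and the ratios of group means give 1.44 in place of 3.23. Without donors 9 and 10 the 3 values were -1.33, -0.37 and 3.14, with p of 0.0902, 0.308 and 0.0855. Markers of the striatum leaned one way in the same test, with a negative difference for 6 of 6 and a median of -0.78. Of these, 4 had an unadjusted p under 0.05 and 0 an adjusted one. Endothelial markers had a negative difference for 5 of 6 (median -0.99, 1 at an unadjusted p under 0.05). Markers of hippocampal neurons had a positive one for 7 of 8 (median 0.84, 0 at that level). The other lists of cell markers were split more evenly. The part of all these markers in the values of the members was not tested.

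The 2 regions of the same cohorts were then compared. Between regions, adjusted p under 0.05 was reached by 0 of 35 members when edgeR's quasi-likelihood test was run with a term for each of the 20 cohorts, where 2.85% of the 19422 genes tested did, and 6 members had an unadjusted p under 0.05, 5 lower in the hippocampus and 1 higher, against 10.9% of all genes tested (8.12% lower and 2.78% higher). DESeq2 called 3 members (Mobp, Ndrg1 and Vcan) and edgeR without its legacy mode 0, against 5.32% and 3.58% of all genes in those fits. They had 7 and 6 members at an unadjusted p under 0.05, against 13.7% and 12.3% of all genes. Of the 35 members, 26 were lower in the hippocampus and 9 higher, and the median log2 fold change was -0.19. All genes tested leaned the same way, with a median of -0.17 and 62.7% lower. That median depended on the fit, from -0.21 to -0.024 over the alternatives, and the median of the members went from -0.25 to -0.063. The 2 medians, all genes and then members, did not always move together. Without the cohort block they were -0.025 (52.1% of all genes lower) and -0.11. Without edgeR's legacy mode they were -0.024 (52.0% lower) and -0.13. In donors 1 to 5 they were -0.13 and -0.063, and without donors 9 and 10 they were -0.21 and -0.12. Of the 24 members with a mean of at least 20 CPM, 18 were lower and the median was -0.08, against -0.07 over the 6462 genes at that level, and 5 of those 24 members had an unadjusted p under 0.05 against 19.7% of those genes. By role, 10 of 12 membrane proteins, 5 of 7 enzymes and carriers, 7 of 8 receptors and other proteins and 3 of 3 transcription factors were lower in the hippocampus. Of the 5 precursor genes 1 was lower, but 8 of 11 further precursor genes were lower too, Olig1, Olig2, Pdgfra and Cspg4 changed sign under some alternative, and the difference between the role groups was not tested.

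The members with an unadjusted p under 0.05, singled out after their values were seen, included 4 membrane proteins of myelin, all lower in the hippocampus. Mobp (chr9:120149707-120181484, plus strand) had a mean of 267 ± 68.3 CPM in the hippocampus and 321 ± 47.6 CPM in the frontal cortex (SD, n = 20 each), lower in 15 of 20 cohorts, with overlapping groups. Its log2 fold change of -0.30 ± 0.10 (SE) had p = 0.00202 and an adjusted p of 0.0661 by edgeR's quasi-likelihood test. The call depended on the fit: the adjusted p was 0.0478 with DESeq2, 0.0491 with a stricter filter on low counts, and 0.0282 and 0.0350 without replicates 6 and 7. Mbp was at 995 ± 198 and 1125 ± 158 CPM, lower in 14 of 20 cohorts, with a log2 fold change of -0.19 ± 0.06 (SE), p = 0.00223 and an adjusted p of 0.0713 by the same test, and its adjusted p was 0.0353, 0.0331 and 0.0195 without replicates 2, 7 and 9. Mag (134 ± 40.8 and 164 ± 42.6 CPM) had -0.31 with p = 0.0165 and an adjusted p of 0.272, and Mal (134 ± 55.65 and 160.2 ± 56.4 CPM) had -0.28 with p = 0.0352 and an adjusted p of 0.395, both from the same edgeR fit. Leaving out single donors moved Mal from -0.36 to -0.18, the latter without replicate 3 (p = 0.202), and 7 of those 10 fits had p under 0.05. Without donors 9 and 10 the values of Mobp, Mbp, Mag and Mal were -0.33, -0.20, -0.30 and -0.34. Within the post-KD cohorts alone Mobp, Mbp, Mag and Mal had -0.40, -0.24, -0.40 and -0.52, and within the pre-KD cohorts -0.20, -0.14, -0.22 and -0.06.

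**Figure D5:**
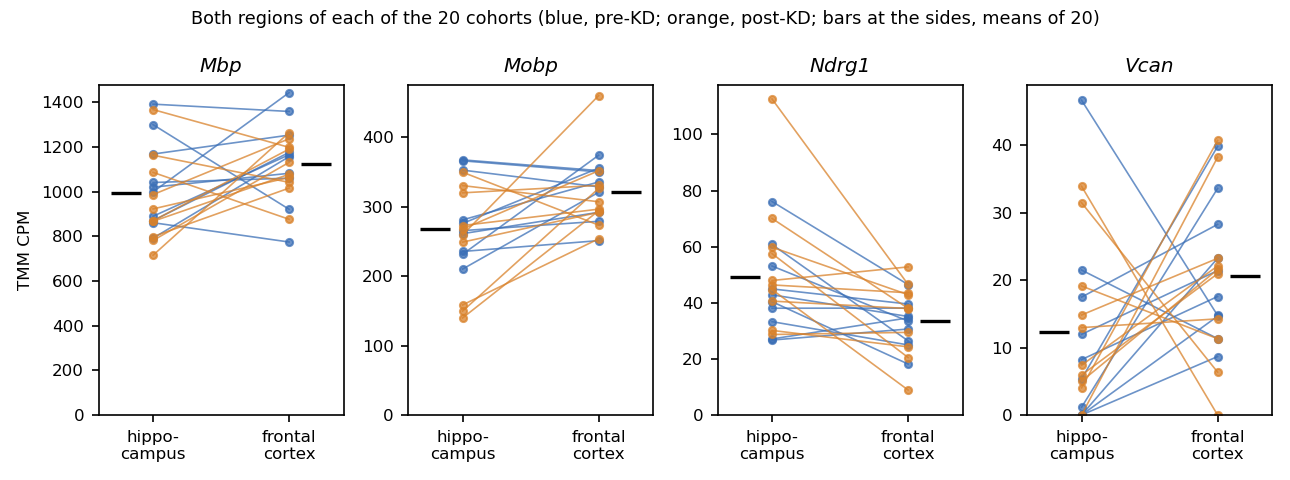
TMM CPM of Mbp, Mobp, Ndrg1 and Vcan in hippocampus and frontal cortex, with a line for each of the 20 cohorts (blue, pre-KD, orange, post-KD) and black bars at the sides for the means of 20. The regions overlap in all 4 panels; Mobp rises toward the frontal cortex in 15 of 20 cohorts and Ndrg1 falls in 15 of 20.

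Outside this group, Vcan, an extracellular matrix proteoglycan (chr13:89655312-89742509, minus strand), was lower in the hippocampus in 15 of 20 cohorts. Its lowest, median and highest values were 0, 7.80 and 46.7 CPM in the hippocampus and 0, 21.2 and 40.7 CPM in the frontal cortex, so the regions overlapped, and the highest hippocampal library, pre-KD replicate 10, lay above each cortical library. The fitted log2 fold change was -1.45 ± 0.54 (SE, p = 0.00744, adjusted p = 0.163 in the edgeR fit), but the ratio of the mean levels was -0.74 on the log2 scale. Ndrg1, expressed in myelinating glia (chr15:66929318-66969640, minus strand), was the 1 member with p under 0.05 that was higher in the hippocampus, in 15 of 20 cohorts. It had 26.7, 44.8 and 113 CPM there and 8.91, 34.9 and 52.8 CPM in the frontal cortex, a log2 fold change of 0.53 ± 0.25 (SE, p = 0.0366, adjusted p = 0.402 in the edgeR fit). Without donors 9 and 10 it was 0.46 with p = 0.0941, and Vcan was -1.70 with p = 0.00633.

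Qdpr, Olig1, Plekhb1 and Car2 had the smallest regional log2 fold changes, -0.0042, 0.026, -0.035 and 0.041, and the 95% intervals of all 4 lay within 0.5 on either side. Qdpr took the other sign, 0.03, under another scaling of the libraries. Mog (31.9 ± 19.2 and 27.2 ± 12.5 CPM) had 0.13 (-0.52 to 0.77), Cnp (128 ± 45.0 and 147 ± 38.8 CPM) -0.23 (-0.50 to 0.03), Olig2 0.27 (-0.36 to 0.89), Pdgfra 0.23 (-0.77 to 1.23) and Cspg4 0.16 (-1.56 to 1.87). Sox10 showed how far thin genes depend on the fit: its mean was 29.4 ± 20.8 CPM in the hippocampus and 31.9 ± 10.1 CPM in the frontal cortex, a log2 ratio of -0.12, while the cohort-blocked fit gave -0.53 ± 0.33 (SE). For Evi2a the same quantities were -0.18 and -1.40, and for Gjb1 -0.47 and -1.26. The 95% interval lay within a 2-fold difference for 21 of 35 members.

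Markers of other cells moved with region beside these values. All 8 markers of the choroid plexus were higher in the hippocampus, 4 of them past an adjusted p of 0.05, with a summed level of 469 to 4358 CPM there and 1.57 to 603 CPM in the frontal cortex. All 6 tested markers of the striatum were lower in the hippocampus past that threshold, with sums of 33.0 to 295 and 500.2 to 1103 CPM. Of 8 general neuronal markers 4 passed and were lower in the hippocampus, with sums of 4098 to 5380 and 4446 to 5629 CPM, and 4 of 8 markers of hippocampal neurons passed and were higher, with sums of 342 to 718 and 159.7 to 270.5 CPM. Of 8 markers of cortical neurons 3 passed, with sums of 474 to 896 and 692 to 1051 CPM. That list was mixed, with 6 lower in the hippocampus and 2 higher, of which 5 and 2 had an unadjusted p under 0.05. The part that the cut of the tissue and its other cells have in the regional values of the members was not tested. Summed markers of astrocytes (2304 to 2969.8 and 2256 to 3110.3 CPM) and microglia (130.2 to 350.1 and 175 to 360.5 CPM) overlapped between regions. Endothelial sums overlapped as well (70.0 to 192 and 115 to 285 CPM), but all 6 endothelial markers were lower in the hippocampus, with a median log2 fold change of -0.54, 3 at an unadjusted p under 0.05 and 0 past adjustment. Of 7 markers of pericytes and fibroblasts, 4 were lower in the hippocampus and 3 higher, with sums of 139.3 to 427.2 and 145.4 to 309.6 CPM. Of the 3 higher ones, 1 passed adjustment (adjusted p = 9.78e-06 by edgeR's quasi-likelihood test).

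Other genes of the lineage, in lists drawn up with earlier results of these data known, were set beside the members. Of 37 further genes of mature oligodendrocytes, 36 were tested in each region and 0 passed an adjusted p of 0.05 in the edgeR fit, with 0 and 1 at an unadjusted p under 0.05 in hippocampus and frontal cortex, where 10.1% and 9.68% of all genes tested had one. Of 11 further precursor genes 0 passed, with 1 and 0 at an unadjusted p under 0.05, 8 and 7 were lower post-KD, and their median log2 fold changes were -0.62 and -0.17 against -0.0076 and 0.0087 over all genes tested. The median SE of these 11 genes was 0.77 and 0.56, and the 5 precursor members had median log2 fold changes of 0.24 and 0.18. In the hippocampus the summed level of the 11 genes overlapped, at 312.8 to 552.7 CPM pre-KD and 358.5 to 536.0 CPM post-KD. Between regions 27 of the 37 were lower in the hippocampus and 10 higher, with a median log2 fold change of -0.32 against -0.17 over all genes tested. An unadjusted p under 0.05 was reached by 8 lower and 2 higher genes (10.9% of all genes tested had one), and 2 passed adjustment, 1 higher and 1 lower (2.85% of all genes). Of the 11 precursor genes 8 were lower, with a median of -0.36, and 0 had an unadjusted p under 0.05. Enpp2, a secreted phospholipase that is also made by the choroid plexus, was higher in the hippocampus (524 against 189 CPM, log2 fold change 1.39 ± 0.09, adjusted p = 3.89e-46 by edgeR's quasi-likelihood test). Cntn2, an adhesion molecule also found in neurons, was lower (75.9 against 113.5 CPM, -0.61 ± 0.16, adjusted p = 0.0070). Hapln2 had 1.41 against 5.45 CPM (-3.08 ± 1.15, adjusted p = 0.161) in the same fit. The fitted change of this thin gene was larger than the ratio of these levels gives.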

How the data were processed

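RNA was sequenced from hippocampus and frontal cortex, 10 libraries in each of 4 groups. The deposited values are raw counts per Ensembl gene. Per the submitters' processing notes the authors used FastQC 0.11.5, STAR 2.5.2a, SAMtools 1.3 and HTSeq 0.6.0 on mm10, and the study's reagent list also names another aligner and kit. The annotation release and strand setting are not given in the sources used here. Identifiers were matched to GENCODE M21 (47224 of 47643).

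Counts were tested with edgeR 4.0.16 (quasi-likelihood, TMM, at least 10 summed counts, p adjusted by Benjamini-Hochberg across the tested genes) in R 4.3.3. Post-KD was set against pre-KD within each region without a block, regions were compared with a term for each of the 20 cohorts, and region by condition was tested in that design. Tables and figures used Python 3.11.15, pandas 2.3.3, numpy 2.4.6 and matplotlib 3.10.9. The fits were tested on simulated data. Alternatives were DESeq2 1.42.0, other filters and scaling, Gm42418 left out, each donor left out, donor blocks and covariates, and subsets of cohorts. Fits without edgeR's legacy mode and without donors 9 and 10 were added after seeing the data.

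Replicate numbers give the stool donor. Deviations of same-donor pre-KD and post-KD libraries correlated at -0.030 to 0.027 in the hippocampus and -0.045 to 0.032 in the frontal cortex, 0 of 10 pairs over 0.1 in each. The members and lists were chosen with earlier results of these data known. In each comparison of conditions, Mbp, Mog, Cnp, Sox10, Olig2, Pdgfra, Cspg4 and any member with an unadjusted p under 0.05 were to be described in full. In the comparison of regions these 7 and the 4 members with the smallest change were to be described, with up to 6 past adjustment. Of the lists of other lineage genes, the 4 with the smallest p between regions were to be named. One of them is not reported here.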

Additional observations from a re-analysis of the deposited data

Results flagged for a closer look

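Of 148 groups of 10 libraries examined (each member and both sums in each group), 27 held 1 library that stood apart from the other 9 by Dixon's criterion. That criterion marks about 1 group in 20 by chance where values are normally distributed. It was applied to CPM without a log scale, and its chance rate for such values was not measured. All flagged libraries were the highest of their group, except for cortical Sox10. Hippocampal pre-KD replicate 5 was the high library for Opalin (46.6 CPM), Gjb1 (54.6 CPM), Tspan2 (87.3 CPM), Ugt8a (63.3 CPM), Car2 (218 CPM) and the mature sum (3734 CPM). Hippocampal post-KD replicate 6 was high for Car2 (232 CPM), Lpar1 (95.02 CPM) and Myrf (66.0 CPM), post-KD replicate 4 for Opalin (35.94 CPM) and Qdpr (234 CPM), post-KD replicate 7 for Ndrg1 (113 CPM), and post-KD replicate 8 for Pdgfra (58.3 CPM) and the precursor sum (190.1 CPM). Among the other hippocampal pre-KD libraries, replicate 9 was high for Fa2h (42.0 CPM) and Myrf (37.5 CPM), replicate 1 for Evi2a (18.4 CPM) and replicate 10 for Vcan (46.7 CPM).

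In the frontal cortex, post-KD replicate 5 was high for Mobp (459.6 CPM) and Mag (285 CPM), replicate 3 for Cryab (151 CPM), replicate 9 for Plekhb1 (180.6 CPM) and replicate 1 for Evi2a (15.1 CPM), while replicate 8 was low for Sox10 (6.36 CPM). Pre-KD replicate 6 was high for Aspa (24.3 CPM), replicate 2 for Gsn (68.9 CPM) and replicate 1 for the precursor sum (150.7 CPM).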

How the results depend on the processing

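No member passed adjustment post-KD against pre-KD or in the test of region by condition under any alternative run, and the cause of the changes below was not tested unless fewer samples or genes made them. In the hippocampus, where 1 gene of all passed adjustment, 0 did with DESeq2, with filterByExpr and in donors 6 to 10, 1291 did with no gene filter and 3 without edgeR's legacy mode, and leaving out single donors gave 0 to 1. The 2 members with an unadjusted p under 0.05 there became 1 in donors 1 to 5, 0 in donors 6 to 10 and 0 without donors 9 and 10 (0 to 3 on leaving out single donors). In the frontal cortex, where 1 gene of all passed, 2 did with DESeq2 and 2 in donors 1 to 5, and the 2 members became 0 in donors 6 to 10 (1 to 2 on leaving out single donors). Between regions, 554 genes became 1033 with DESeq2, 294 in donors 1 to 5, 190 in donors 6 to 10, 193 in pre-KD cohorts and 251 in post-KD cohorts. The 0 members past adjustment became 3 with DESeq2 and 1 with filterByExpr (0 to 2 on leaving out single donors), and the 6 with an unadjusted p under 0.05 became 3 in donors 1 to 5 and 2 in pre-KD cohorts (4 to 7). For region by condition, 3 genes became 0 with DESeq2 and 1 without the legacy mode (2 to 4), and the 3 members became 8 with DESeq2 and 1 without donors 9 and 10 (1 to 5). Genes at an unadjusted p under 0.05 ran over the alternatives from 221 to 2931 in the hippocampus, 407 to 3035 in the frontal cortex, 1208 to 3475 between regions and 429 to 1767 for region by condition.

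With the stool donor as a replicate block, 0 genes passed in the hippocampus in both edgeR and DESeq2, 3 and 12 passed in the frontal cortex, and 4 cortical members had an unadjusted p under 0.05 in DESeq2. Hippocampal Sox10 turned from -0.16 to 0.11 and 0.12 with the block. Without the cohort block, 1935 genes passed between regions and 348 for region by condition. The block changed no call of a member after adjustment.

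Some log2 fold changes with wide intervals or small values changed sign. In the hippocampus Cnp was -0.30 and Cspg4 -0.10 in donors 1 to 5, Cnp was -0.087 without donors 9 and 10, and Pdgfra was 0.16 in donors 6 to 10. In the frontal cortex Mog was -0.13 in donors 1 to 5, Olig2 -0.44 in donors 6 to 10 and Cnp -0.022 without donors 9 and 10. Between regions Qdpr was 0.029 with DESeq2 and 0.030 with RLE size factors, 0.20 in donors 1 to 5, 0.11 in post-KD cohorts and 0.092 without donors 9 and 10. In donors 1 to 5 Sox10 was 0.067, Olig2 -0.0066, Pdgfra -0.61, Olig1 -0.033 and Car2 -0.025. In donors 6 to 10 Mog was -0.052, Cspg4 -0.76 and Plekhb1 0.014, and in pre-KD cohorts they were -0.30, -1.68 and 0.28. In post-KD cohorts Pdgfra was -0.61, Olig1 -0.41 and Car2 -0.11, and without donors 9 and 10 Olig1 was -0.027. Leaving out single donors gave -0.26 to 0.076 for hippocampal Sox10 and, between regions, -0.050 to 0.27 for Mog, -0.28 to 0.45 for Cspg4, -0.14 to 0.039 for Plekhb1, -0.087 to 0.057 for Qdpr, -0.12 to 0.11 for Olig1 and -0.077 to 0.16 for Car2. The log2 ratio of the cortical precursor sum was 0.16 post-KD to pre-KD, whereas log2(CPM + 1) averaged over the 5 single genes, which weights them equally, differed by -0.092.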
